A study of Mus musculus with 18 samples.

Results

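miR-486-5p is a microRNA of muscle and of red blood cells that mouse annotations have carried under a pair of names, mmu-miR-486-5p and mmu-miR-3107-5p. Both names stand for 1 mature molecule, and the members here are those 2 names, picked by name and not by their values, out of 2042 names in the deposited table of C2C12 small RNA. C2C12 is a mouse myoblast line that exits the cell cycle and fuses into myotubes when serum is lowered. The study used miTRAP, an affinity purification in which a bait RNA tagged with MS2 hairpins is incubated with cell extract and the small RNA that stays with it is sequenced, to ask which miRNAs associate with the 3'UTR of MRTF-A (gene Mrtfa), a coactivator of serum response factor. There were 18 libraries in 6 groups of 3: RNA of the cell extract itself (input), what was eluted from the MRTF-A bait, and what was eluted from a control with MS2 only. Each kind was made from undifferentiated cells and after 7 days of myogenic differentiation.

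All groups came from the one C2C12 line, labelled as myoblasts in both states. Per the labels, cells were grown with 10% FCS, and 2% HS was used for the 7 days of differentiation. That treatment text stands on undifferentiated samples as well, and titles and the differentiation label gave the state. Whether the 3 libraries of each group were separate cultures is not said in the labels, so every p-value below reflects the spread of these libraries alone, and that spread may be technical. Within a group the libraries are called A, B and C, letters that only name them.

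The miR-486 hairpin lies in an intron of Ank1, the gene of the membrane-skeleton protein ankyrin-1, and in skeletal muscle it is transcribed from a muscle promoter of that gene that MyoD and the MRTF/SRF pathway are known to use. Its 5' arm is the abundant guide strand and is known to repress Foxo1, a transcription factor of muscle wasting, and Pax7, the transcription factor of muscle stem cells. It is counted among the myomiRs, the miRNAs enriched in muscle, although erythroid cells also make much of it.

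In the GENCODE vM21 annotation of GRCm38, Mir486 lies on chromosome 8 from 23142555 to 23142682 on the plus strand and is 128 bases long. Mir3107 lies on the minus strand from 23142573 to 23142662 and is 90 bases long, and all 90 bases fall within the span of Mir486. The 2 hairpins are therefore the 2 strands of 1 stretch of DNA. Both sit inside Ank1, which runs from 22974844 to 23150497 on the plus strand, and overlap 0 of its exons. The Mir486 span begins 835 bases after one Ank1 exon and ends 5599 bases before the next. An antisense gene, Gm15816 (23138794 to 23149585, minus strand), also spans them, again with 0 overlapping exons. How the authors treated strand and reads that match several loci is not given in the sources used here, so transcription of the 2 hairpins cannot be told apart in these data.

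The reads fell evenly on the 2 names. Over all libraries miR-486-5p held 64029 reads and miR-3107-5p 64256, so miR-486-5p had 49.9% of 128285 reads, with an exact (Clopper-Pearson) 95% interval of 49.6% to 50.2%. The intervals cover counting error only. The interval held 50% in all 18 libraries. The extremes lay in the shallow undifferentiated MS2 controls: 41.0% in library B (32 against 46 reads) and 52.6% in library A (20 against 18 reads). In the library with the most reads of the pair, differentiated input B, 12489 and 12353 reads gave 50.3%. Each name thus carried about the same number of reads in each library, and the level of the molecule is the sum of both.

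Neither name of miR-486 had a sequence in the RefSeq set used here (GRCm38.p6), so their identity was not checked there. The table holds pairs of other names, with at least 20 reads in all, whose mature sequence is identical in RefSeq and where the same split can be read. They are shown because they are 1 sequence each with more than one gene, and capitals mark the seed, bases 2 to 8:
miR-199a-3p and miR-199b-3p: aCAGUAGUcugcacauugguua
let-7a-1-3p and let-7c-2-3p: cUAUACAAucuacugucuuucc
The miR-199 pair held 19803 and 19765 reads, 50.0% under the first name (exact interval 49.6% to 50.5%), and 18 of 18 libraries had an interval that held 50%. The let-7 pair held 590 and 597 reads, 49.7% (46.8% to 52.6%), with 14 of 14 libraries that had reads holding 50%. An even split was therefore shared by the miR-486 names and by both of these pairs of names for one sequence.

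**Figure D1:**
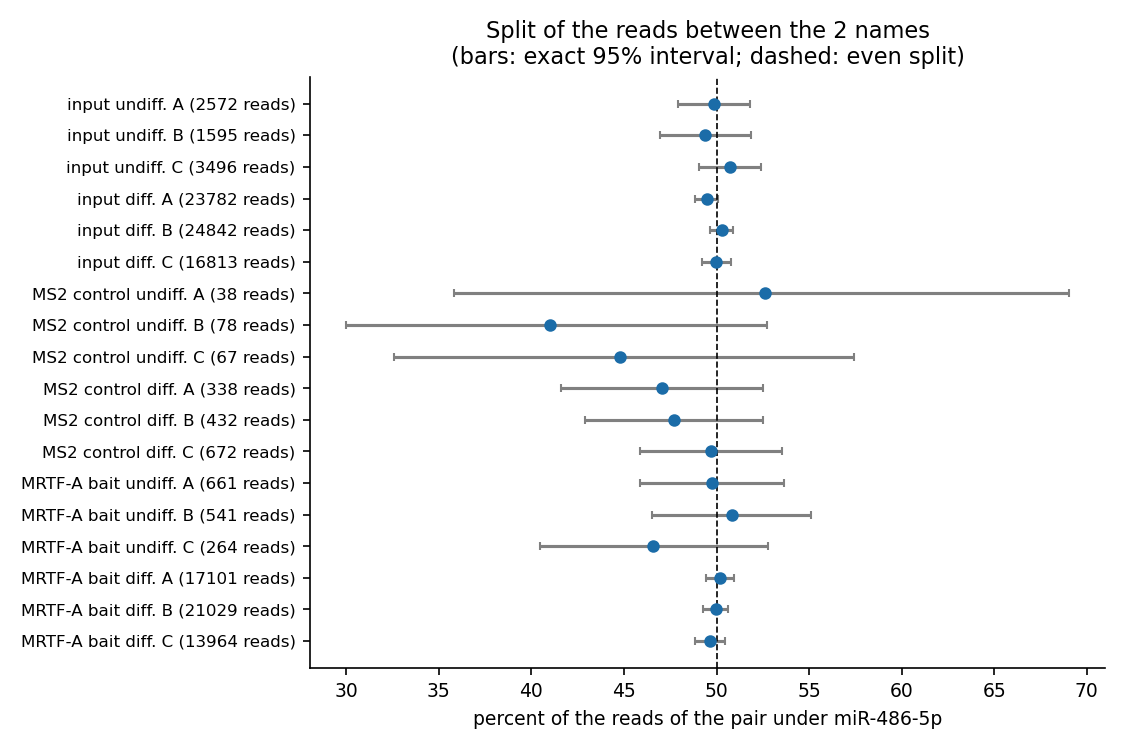
Share of the reads of the pair that stood under miR-486-5p in each of the 18 libraries (x axis, percent; points, share; bars, exact 95% interval; dashed line, 50%). Every interval holds 50%, and the widest belong to the undifferentiated MS2 controls, which had 38 to 78 reads of the pair.

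Because the names split the reads of 1 molecule, their values are not independent of each other, and calls on both count as 1 observation. Across all comparisons below their log2 fold changes differed by 0.00 to 0.22, with the largest gap where the MS2 control of undifferentiated cells, the group with the fewest reads of the pair of names (183), was set against input.

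The deposited values are a normalised signal in CPM, counts per 1e6 reads, which the authors scaled with a factor for each library. Recovered reads per library numbered 294112 to 860828 in input, 107165 to 544504 in the bait eluates and 15562 to 39695 in the MS2 controls. The factors were 0.701 to 1.48 in input, 0.341 to 0.634 in bait eluates and 1.24 to 2.37 in MS2 controls, so CPM and the plain share of a library's reads diverge between kinds of library. Single names dominated some groups: miR-31-5p took 52.8% to 66.5% of the reads of undifferentiated bait eluates, miR-1a-3p 30.8% to 34.1% of differentiated ones, and miR-21a-5p 38.5% to 53.3% of undifferentiated input. In the MS2 controls miR-6244 took 10.46% to 55.2% of the reads in undifferentiated and 33.5% to 45.5% in differentiated cells. There miR-615-3p took 22.9% to 31.9% and 14.1% to 30.1%. Both scales are therefore given for miR-486. Of the MS2 controls, 3 carried 0.755% to 0.930% of reads under names of human miRNAs (undifferentiated A, differentiated A and B), against 0.0900% to 0.115% in the other 3, and results that use them are also given without them where a call changed.

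miR-486 rose strongly with differentiation in the cells. In undifferentiated input mmu-miR-486-5p stood at 3904, 2189 and 2937 CPM in libraries A, B and C (mean 3010 ± 860, SD, n = 3). In differentiated input it stood at 21596, 23466 and 18079 CPM (21047 ± 2735, SD, n = 3). The groups did not overlap, and the lowest differentiated library lay far above the highest undifferentiated one. Under the other name, mmu-miR-3107-5p, the means were 3008 ± 854 and 21119 ± 2693 CPM (SD, n = 3). As a share of reads, the names together made up 0.874%, 0.453% and 0.406% of undifferentiated input and 5.93%, 5.37% and 5.35% of differentiated input. Undifferentiated A was the highest of its group on both scales. The ratio of group means was 7.01 on CPM and 9.60 on shares of reads, and the molecule moved from rank 15 to 30 among all names, its 2 names summed, to rank 6 or 7.

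The limma fit used log2(CPM + 10), where 10 is a pseudocount that keeps low values finite and shrinks their fold changes. The log2 change in input was 2.83 ± 0.32 (SE) for miR-486-5p and 2.84 ± 0.32 for miR-3107-5p, both with a Benjamini-Hochberg adjusted p of 1.3e-05. Past the threshold of 0.05 lay 62.3% of the 313 names tested, 16% higher and 46.3% lower, so a call alone was common and a rise was less so. DESeq2 split its calls as 87 higher and 91 lower, against 50 and 145 here. The names ranked 8th and 7th from the highest. The median of all names tested was -0.64, and miR-486-5p lay 3.47 above it. Under 6 combinations of scaling and test the change passed in 6 of 6, between 2.81 and 3.51, and its distance to the median lay between 3.47 and 3.63. In the authors' deposited table the log2 changes were 2.81 for each name.

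**Figure D2:**
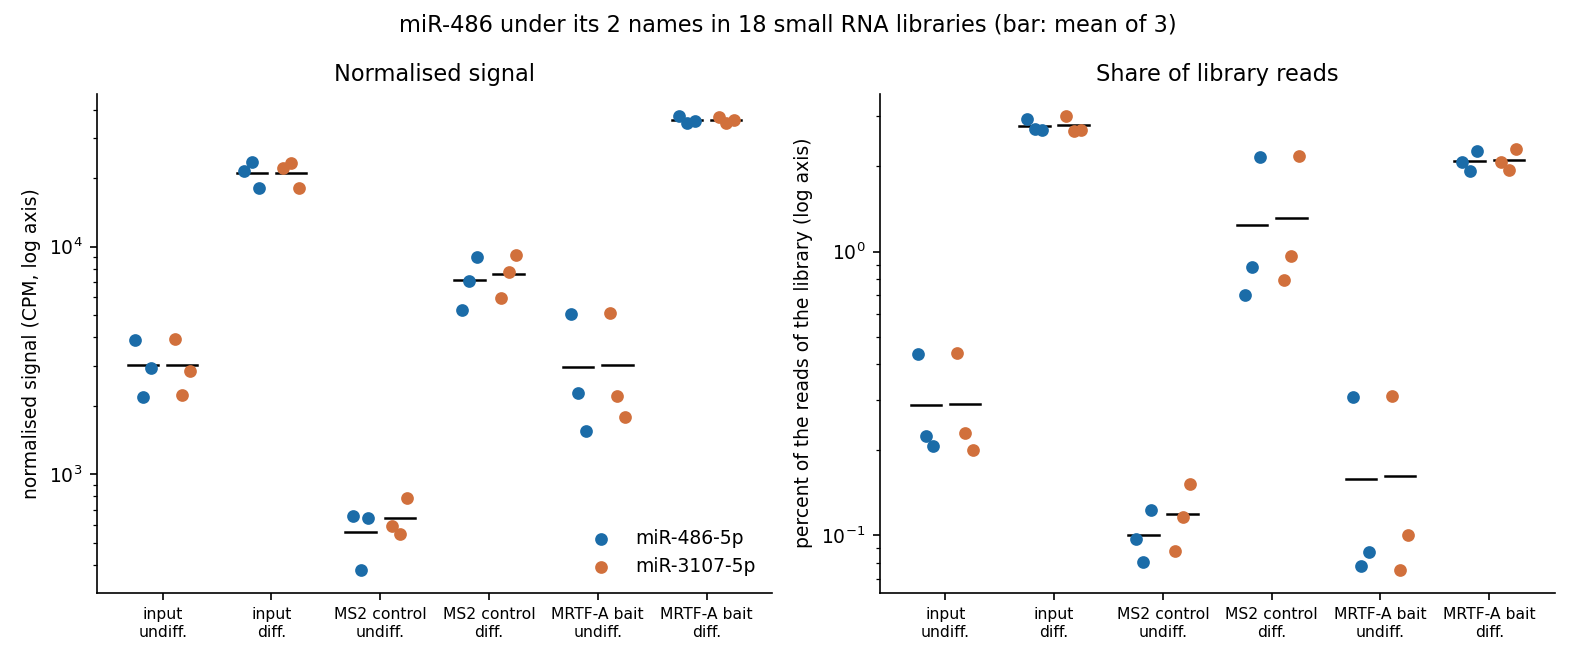
Level of miR-486-5p (blue) and miR-3107-5p (orange) in each library, as normalised signal in CPM (left, log axis) and as percent of the reads of the library (right, log axis), with bars at the mean of 3 libraries. On both scales differentiated libraries of each kind lie above the undifferentiated ones, while bait eluates lie above MS2 controls without overlap on CPM only.

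The opposite arm of the hairpins was scarce. Over all libraries 713 reads stood under miR-486-3p and 142 under miR-3107-3p. Pooled, miR-486-3p had 83.4% of 855 reads, an uneven split in contrast to the 5' arm. The share varied by group: 71.7% in undifferentiated and 86.2% in differentiated input, 53.8% (7 against 6 reads) and 84.4% in the bait eluates. Whether the 3' names share 1 sequence was not checked, and the cause of the uneven split was not tested. In undifferentiated input 76 and 30 reads were counted, and in differentiated input 349 and 56. miR-486-3p stood at 63.9, 72.2 and 48.0 CPM in undifferentiated and at 229, 256 and 189 CPM in differentiated input, with no overlap. Its log2 change was 1.72 ± 0.33 (limma, adjusted p = 0.000685), whereas miR-3107-3p was at 0.39 ± 0.32 (adjusted p = 0.30) and did not pass. With DESeq2 (1.27), TMM (0.90) and RLE factors (0.87) of the 6 inputs miR-3107-3p passed too, and miR-486-3p stayed above it at 2.56, 2.35 and 2.32. The 3' arms of both hairpins made up 1.19%, 2.09% and 1.16% of all their reads in undifferentiated input and 0.623%, 0.632% and 0.580% in differentiated input. The mean share was 1.48% ± 0.527 before and 0.611% ± 0.0280 after differentiation (SD, n = 3), lower in 3 of 3 differentiated libraries than in any undifferentiated one. A 2-sided exact permutation test gave p = 0.1, the smallest value that 3 against 3 libraries allow, and the number of reads of the 3' arm was small in undifferentiated libraries (31 to 41). The MS2 controls held 10 reads of miR-486-3p in all and 0 of miR-3107-3p.

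Markers of red and white blood cells were counted at few reads. Erythroid miR-451a had 4 reads in all 18 libraries, and all 4 were in differentiated input. The 7 blood markers, which also include miR-144, miR-223, miR-142 and miR-150, summed to 0 to 3 reads per undifferentiated input library and to 2 reads in each differentiated one. They were at 0 in all MS2 controls. In bait eluates they summed to 0 to 2 reads (0 to 30.7 CPM) in undifferentiated and to 11 to 15 reads (46.6 to 77.1 CPM) in differentiated cells, where 40 of the reads of miR-144-5p lay. Of the 7, only miR-144-5p was counted in bait eluates, with 2 reads in undifferentiated cells. Its part in the rise of miR-486 there was not tested. Of the epithelial markers (the miR-200 family and miR-141), 0 to 5 reads were seen per input library, and cardiac miR-208a-3p had 1 read in all. Of the neural markers, miR-124-3p had 0 reads in all 18 libraries. The other, miR-9-5p, was at 52 to 158 reads per library in undifferentiated and 18 to 36 in differentiated input.

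Markers of the labelled cells moved with state. The muscle markers miR-1a-3p, miR-133a-3p and miR-206-3p summed to between 225 and 1389 CPM in undifferentiated and between 38668 and 57068 CPM in differentiated input. All 3 rose, where 16% of all names were higher. Of these, miR-1a-3p had 0 reads in undifferentiated input and was kept for the test through differentiated input alone, so it could only come out higher. The markers of proliferating myoblasts (miR-21a-5p, miR-31-5p, miR-221-3p and miR-222-3p) summed to between 364343 and 794836 CPM before and between 107362 and 147897 CPM after. All 4 fell, where 46.3% of all names were lower. With DESeq2 the same markers passed in the same directions, where 87 of 313 names were higher and 91 lower.

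Among the myomiRs, miR-486 was already abundant before differentiation. Of 9 listed names, 8 were tested in input and 8 of 8 rose under each of the 6 combinations, with a median log2 change of 3.85 against -0.64 over all names. Of all 313 names, 16% were higher (50 with limma, 87 with DESeq2), and the 8 include both names of miR-486. Of the 8, 3 had 0 reads in all undifferentiated inputs. These 3 were kept for the test through differentiated input alone and could only come out higher, so they lend the count no weight. Against a floor of 3 reads per library, miR-1a-3p was at least 945-fold higher after differentiation (7069 ± 610 CPM, SD, n = 3). miR-499-5p was at least 25.3-fold and miR-208b-3p at least 5.26-fold higher, both encoded in myosin genes. With these 3 at their bounds the median of the list was 3.92. miR-133a-3p rose by 6.48 ± 0.56 and miR-133b-3p by 4.46 ± 0.62. miR-206-3p, specific to skeletal muscle, rose by 3.38 ± 0.35 from 120 ± 46.8 to 1298 ± 175 CPM (SD, n = 3). The changes of these 3 with reads in both states were larger than the 2.83 of miR-486-5p. In undifferentiated cells each miR-486 name already stood at about 3010 CPM, and that is a level per name, so the molecule had 6019 ± 1712 CPM (SD, n = 3). Differences between the changes of these miRNAs were not tested.

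The MS2 control, which lacks the MRTF-A sequence, showed the relative level of miR-486 carried over without the bait. miR-486-5p stood at 656, 380 and 640 CPM in undifferentiated MS2 controls (559 ± 155, SD, n = 3), which rested on 20, 32 and 30 reads. It stood at 5280, 7072 and 9045 CPM in differentiated MS2 controls (7132 ± 1883, SD, n = 3), from 159, 206 and 334 reads. The states did not overlap. The names together were 0.185%, 0.196% and 0.275% of the reads before and 1.50%, 1.84% and 4.32% after, where differentiated C stood apart above A and B. The log2 change between states was 3.66 ± 0.41 for miR-486-5p (limma, adjusted p = 3.5e-05) and 3.54 ± 0.37 for miR-3107-5p (adjusted p = 2.7e-05). Of 169 names tested in the eluates, 24.9% passed, 16% higher and 8.88% lower. The control alone thus rose with differentiation by a factor of 12.3 on CPM and 11.7 on shares of reads.

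Relative to input, miR-486 was depleted in the MS2 control under the deposited scaling. The log2 difference was -2.41 ± 0.37 in undifferentiated (limma, adjusted p = 2.3e-05) and -1.59 ± 0.37 in differentiated cells (adjusted p = 0.00130) for miR-486-5p. For miR-3107-5p it was -2.19 ± 0.34 (adjusted p = 2.4e-05) and -1.48 ± 0.34 (adjusted p = 0.00106). Of 305 names tested over all 18 libraries, 71.1% passed in undifferentiated and 69.2% in differentiated cells, 62.6% and 53.8% lower and 8.52% and 15.4% higher. The medians of all names were -2.19 and -1.58, so miR-486 sat near the middle of the names. In 4 of 6 combinations of scaling and test the depletion passed, and with factors of the DESeq2 type it did not (-0.59 and -0.74 for miR-486-5p, DESeq2 adjusted p = 0.21 and 0.0944). Over all 18 libraries the TMM factors equal the deposited ones, so the TMM combination repeats the limma fit and is no separate check. Without the 3 MS2 controls of many human-named reads, the differentiated value was -1.21 for miR-486-5p (adjusted p = 0.0754) and -1.20 for miR-3107-5p (adjusted p = 0.0603), and neither passed. That removal left differentiated control C as the only one of its group, with its spread assumed to be that of the other groups.

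With the MRTF-A bait, miR-486 was recovered above the MS2 control in both states on the deposited scale. In undifferentiated bait eluates miR-486-5p stood at 5044, 2285 and 1550 CPM (2960 ± 1842, SD, n = 3), all above the highest undifferentiated control at 656 CPM. Library A was the high one, more than 2 times B. In differentiated bait eluates it stood at 37410, 35002 and 35657 CPM (36023 ± 1245, SD, n = 3), all above the highest differentiated control at 9045 CPM. The ratio of means of bait to control was 4.98 before and 4.89 after differentiation for the names together.

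The log2 difference between bait and control in undifferentiated cells was 2.25 ± 0.41 for miR-486-5p (limma, adjusted p = 0.000332) and 2.08 ± 0.37 for miR-3107-5p (adjusted p = 0.000273). In that comparison 60.4% of 169 names passed, 43.2% higher and 17.2% lower, and the median of all names was 1.16. miR-486-5p ranked 67th from the highest and lay 1.09 above the median. In differentiated cells the difference was 2.37 ± 0.41 (adjusted p = 0.000163) and 2.27 ± 0.37 (adjusted p = 0.000110). There 79.3% of names passed, 57.4% higher and 21.9% lower, and the median was 2.37. miR-486-5p ranked 85th of 169 and lay 0.00 from the median, that is, it was the middle name. In differentiated cells the excess of miR-486 with the bait was as large as that of the typical miRNA of the eluates. The authors' deposited table gave 2.43 and 2.34 for miR-486-5p and 2.23 and 2.24 for miR-3107-5p.

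The scale decided this call. As a share of reads the molecule made up 0.617%, 0.153% and 0.187% of undifferentiated bait eluates, which overlaps with 0.185% to 0.275% in the controls, and libraries B and C lay in or below the range of the controls. In differentiated cells it made up 4.13%, 3.86% and 4.56% with the bait against 1.50%, 1.84% and 4.32% in the controls, where control C lay within the range of the bait. Ratios of mean shares were 1.46 and 1.64. With library totals in place of the deposited factors, the limma log2 difference was 0.37 (adjusted p = 0.57) and 0.92 (adjusted p = 0.13) for miR-486-5p and 0.20 (adjusted p = 0.76) and 0.82 (adjusted p = 0.17) for miR-3107-5p. The other 5 of 6 combinations passed in each state. The distance of miR-486-5p from the median of all names was 0.61 to 1.29 before and -0.26 to 0.10 after differentiation over the 6, so its place among the names moved less than its fold change.

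**Figure D3:**
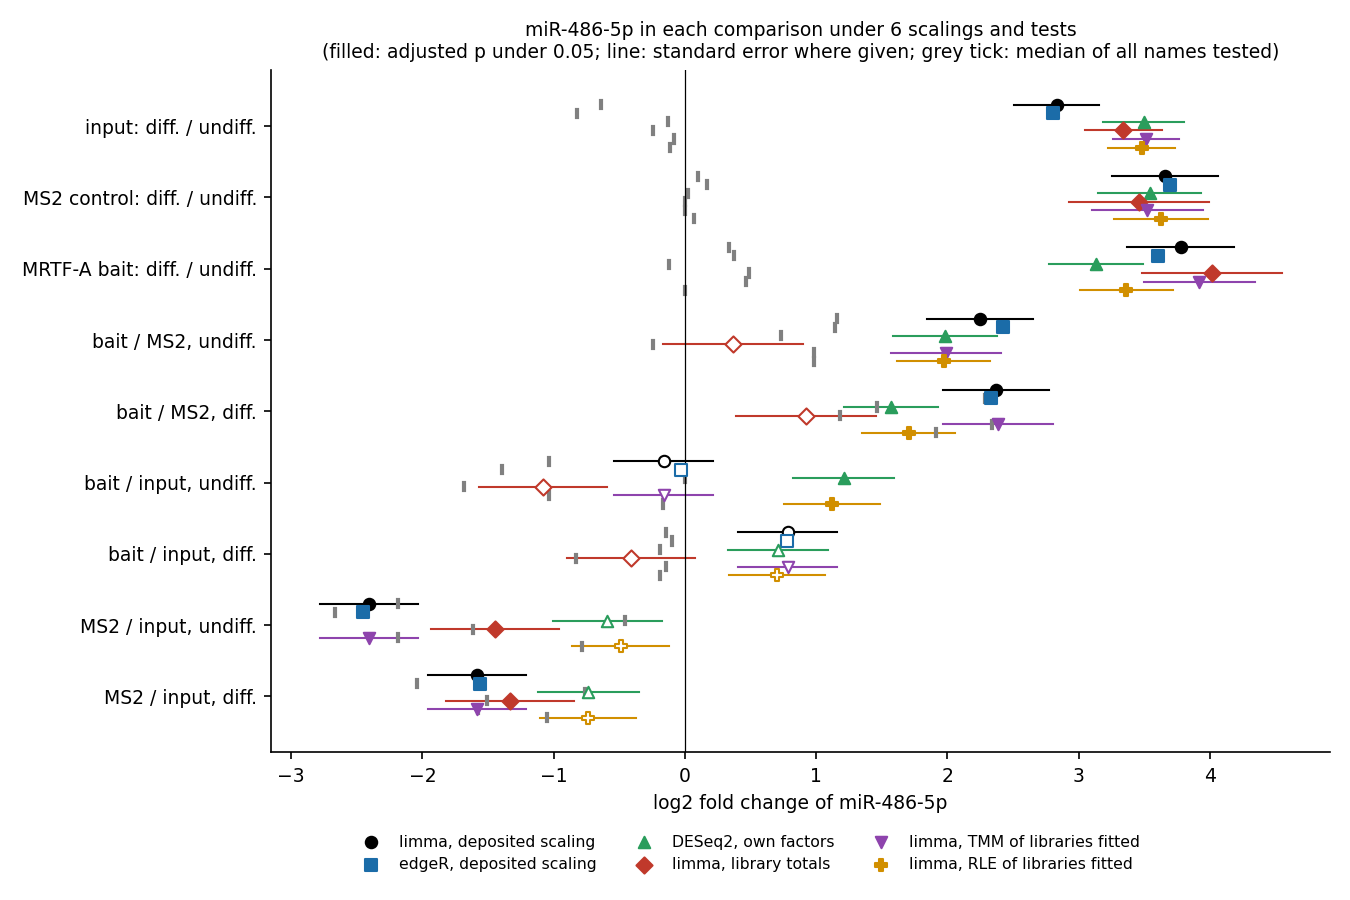
Log2 fold change of miR-486-5p in 9 comparisons (rows) under 6 combinations of scaling and test (symbols; filled where the adjusted p was under 0.05; lines, standard error where the tool gives one; grey ticks, median of all names tested). The changes with state pass under all 6, whereas bait over MS2 control fails with library totals and the comparisons of eluates with input shift with the scaling together with the median. In the comparisons of eluates with input the TMM factors equal the deposited ones, so both limma fits give the same values.

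Set beside the other candidates of the study, miR-486 had the smallest excess with the bait in differentiated cells. The study picked that list from these same samples, so its direction is no independent evidence. Of its 5 names, 4 passed in undifferentiated and 5 in differentiated cells, all higher, where 43.2% and 57.4% of all names were higher. The medians were 2.25 and 4.94 against 1.16 and 2.37 over all names, and the 5 include both names of miR-486, so that the 2.25 is the value of miR-486-5p itself. miR-24-3p, higher with the bait in both states, was at 4.71 ± 0.43 and 4.94 ± 0.43. miR-206-3p passed in both states and was at 6.08 ± 0.58 in differentiated cells. miR-1a-3p did not pass in undifferentiated cells (limma, adjusted p = 0.14) and was at 6.63 ± 0.70 in differentiated cells. The undifferentiated controls held 1 read of miR-206-3p and 2 of miR-1a-3p, too few for a fold. Each of these 3 lay over 2 log2 units above miR-486 in differentiated cells, a difference between miRNAs that was not tested. Over the myomiRs, 3 of 6 tested passed higher before and 5 of 6 after differentiation (medians 1.65 and 2.62), against the same 43.2% and 57.4% of all names, and both counts include the 2 names of miR-486. With library totals 2 of 5 candidates passed before and 3 after differentiation, where 55 and 73 of all 169 names were higher. miR-486 was not among the candidates that passed.

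**Figure D4:**
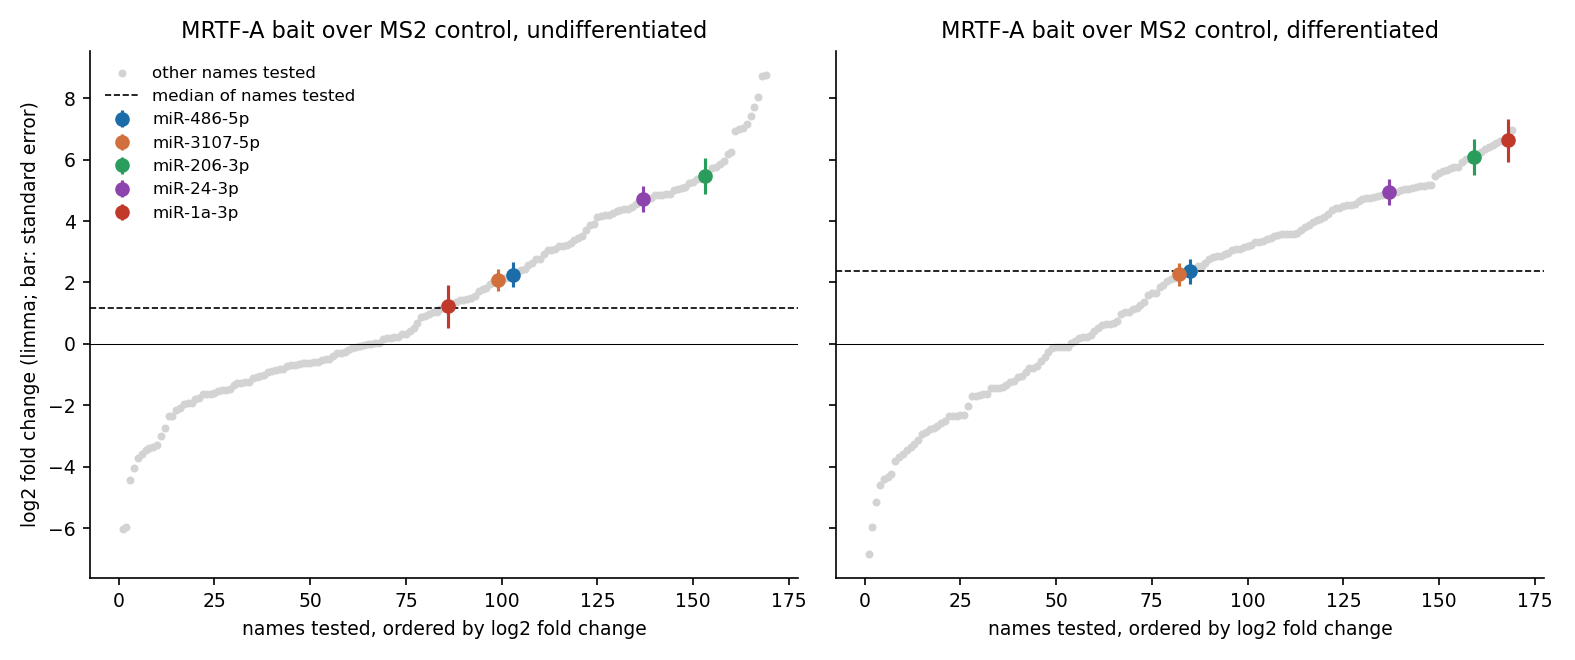
Log2 fold change of the MRTF-A bait over the MS2 control for all 169 names tested, ordered within each state (grey), with miR-486-5p, miR-3107-5p, miR-206-3p, miR-24-3p and miR-1a-3p coloured (bars, standard error; dashed line, median of all names). In differentiated cells both names of miR-486 sit on the median of 2.37, and miR-24-3p, miR-206-3p and miR-1a-3p lie above it.

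No difference in the bait effect between states was detected for miR-486. The difference of the log2 differences, differentiated minus undifferentiated, was 0.12 ± 0.57 for miR-486-5p (95% interval -1.13 to 1.37; limma, adjusted p = 0.96) and 0.18 ± 0.52 for miR-3107-5p (-0.94 to 1.31; adjusted p = 0.90). The interval leaves room for a change of more than 2-fold in either direction for miR-486-5p. Of 169 names, 13% passed here, 8.28% higher and 4.73% lower. The value changed sign with edgeR (-0.09), DESeq2 (-0.41) and RLE factors (-0.27) and passed under 0 of 6 combinations.

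What did differ between states was the level in the eluates, which is relative to the other reads of each library. In the bait eluates the log2 change with differentiation was 3.78 ± 0.41 for miR-486-5p (limma, adjusted p = 1.4e-05) and 3.73 ± 0.37 for miR-3107-5p (adjusted p = 1.2e-05), ranks 9 and 12 from the highest. The median of all names was 0.33, and 38.5% passed, 23.7% higher and 14.8% lower. The states did not overlap on either scale, with ratios of means of 12.1 on CPM and 13.1 on shares of reads. The change passed in 6 of 6 combinations, between 3.13 and 4.02. The same held for the MS2 control, between 3.46 and 3.70.

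The rise was thus seen in input, in the bait eluates and in the control, with limma point estimates of 2.83, 3.78 and 3.66 for miR-486-5p. With DESeq2 they were 3.50, 3.13 and 3.54, so their order changed. A comparison added after the values were seen tested the gap between the change in each eluate and that in input over all 18 libraries. The change in bait eluates exceeded that in input by 0.95 ± 0.53 (95% interval -0.18 to 2.07; limma, adjusted p = 0.23) for miR-486-5p and 0.89 ± 0.48 (-0.13 to 1.91; adjusted p = 0.21) for miR-3107-5p, and did not pass. The median of all names was 0.89, and 20.3% passed, 16.7% higher and 3.61% lower. Without undifferentiated bait eluate A the gap was 1.42 (adjusted p = 0.037) and 1.34 (adjusted p = 0.024) and passed, so that 1 library decided this call. Its sign also depended on the scaling, at -0.50 and -0.53 with DESeq2 and -0.42 and -0.47 with RLE factors. For the MS2 control the gap was 0.82 ± 0.53 (adjusted p = 0.36) and 0.71 ± 0.48 (adjusted p = 0.39), where the median was 0.64 and 10.2% passed, 9.51% higher and 0.656% lower. With DESeq2 it was -0.14 and -0.28, and with RLE factors -0.25 and -0.37.

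Bait eluates and input did not differ beyond the threshold. In undifferentiated cells the log2 difference was -0.16 ± 0.37 for miR-486-5p (limma, adjusted p = 0.72) and -0.11 ± 0.34 for miR-3107-5p (adjusted p = 0.79), where 68.5% of 305 names passed (23.3% higher, 45.2% lower) and the median was -1.04. In differentiated cells it was 0.78 ± 0.37 (adjusted p = 0.0782) and 0.78 ± 0.34 (adjusted p = 0.0562), where 62% passed (31.1% higher, 30.8% lower) and the median was -0.14. The differentiated libraries did not overlap on either scale, but in opposite directions: the ratio of bait to input was 1.71 on CPM and 0.754 on shares of reads. Fitted on the 6 libraries compared, the difference was the same and passed (adjusted p = 0.000989 and 0.000962). With library totals it was -0.41 for each name. In undifferentiated cells DESeq2 gave 1.21 (adjusted p = 0.0032) and RLE factors 1.12 (adjusted p = 0.015) for miR-486-5p, the opposite sign. The direction between eluate and input therefore depended on the scaling in both states.

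On CPM the order of the 6 groups for miR-486-5p, from the lowest mean, was undifferentiated MS2 control (559), undifferentiated bait eluate (2960), undifferentiated input (3010), differentiated MS2 control (7132), differentiated input (21047) and differentiated bait eluate (36023). The libraries of undifferentiated bait eluate and undifferentiated input overlapped, and no other neighbours did. On shares of reads of both names the order was undifferentiated MS2 control (0.219%), undifferentiated bait eluate (0.319%), undifferentiated input (0.578%), differentiated MS2 control (2.55%), differentiated bait eluate (4.18%) and differentiated input (5.55%). There the 3 undifferentiated groups overlapped with their neighbours, and so did differentiated control and bait eluate. Every differentiated group lay above every undifferentiated group on both scales.

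Over the 18 libraries the names most like miR-486-5p, by Pearson's r of log2(CPM + 10) among 305 names, were looked up as a description. The libraries share state, kind and scaling, so no p is given. miR-3107-5p had r = 0.998. Next came miR-206-3p with 0.909, miR-378a-3p with 0.908, miR-1a-3p with 0.877, miR-133a-3p with 0.858 and miR-181a-5p with 0.853. Over the 6 input libraries the same names had 0.994, 0.980, 0.982, 0.989 and 0.90, and over the 6 group means 0.915, 0.910, 0.887, 0.90 and 0.892. miR-378a-3p, which is encoded in the coactivator gene Ppargc1b, stood at 16402 ± 3835 CPM in undifferentiated and 48166 ± 5386 CPM in differentiated input (SD, n = 3), and at 5363 ± 1992 and 52513 ± 4456 CPM in the bait eluates. miR-206-3p stood at 834 ± 766 and 19079 ± 813 CPM in bait eluates against 7.12 ± 12.3 and 272 ± 27.6 CPM in the controls. Those control values rested on 1 and 26 reads, and a difference in recovery from miR-486 was not tested. The 18 points fell mainly into differentiated and undifferentiated libraries, and likeness over them mostly reads that contrast.

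**Figure D5:**
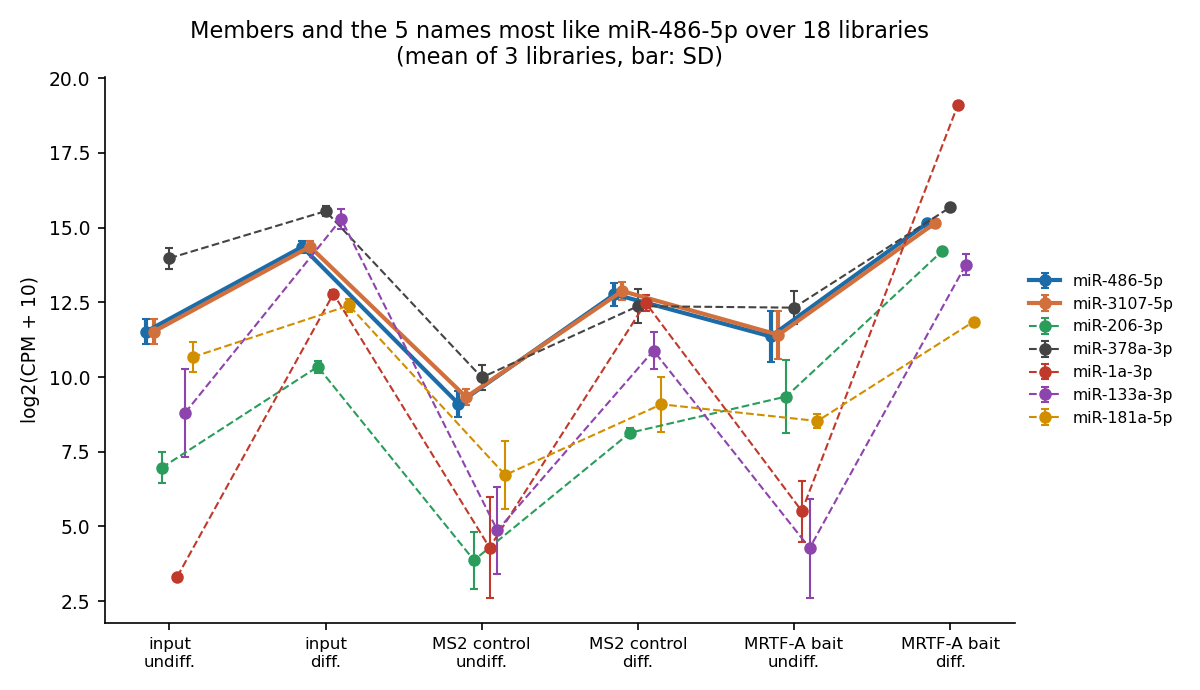
Mean of log2(CPM + 10) over 3 libraries (bars, SD) in the 6 groups for miR-486-5p, miR-3107-5p and the 5 other names with the highest r to miR-486-5p over 18 libraries; lines only join the groups of a name. All 7 are higher in differentiated than in undifferentiated libraries of each kind, and the 2 names of miR-486 run together throughout.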

How the data were processed

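The submitters' processing notes name edgeR 3.18.1, featureCounts 1.4.6, Bowtie2 2.0.13 and cutadapt 1.4.2, with GRCm38/mm10, for reads of 50 bases. Settings, strand and multi-mapping were not given in the sources used here, and the deposited signal is a normalised CPM by the authors. Per the file headers, the authors' deposited table also holds log2 fold changes, p-values and FDR values. Dividing by the smallest value above 0 of each library made 100% of values whole within 0.01 read, so reads were recovered, and the factors equal TMM factors over 18 libraries.

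The members and lists were chosen with earlier results of these data known. Named miRNAs are the members, the other arm of their hairpins, the 5 most alike, pairs of identical sequence, and the myomiR, candidate and cell type marker lists; 1 further list is not reported here. As the values are normalised, the plan's limma branch was used: limma 3.58.1 with trend (R 4.3.3) on log2(CPM + 10) without a replicate block, names kept by filterByExpr on recovered reads, Benjamini-Hochberg over all names tested, threshold 0.05. The 6 inputs, the 12 eluates or all 18 libraries were fitted for comparisons within inputs, within eluates and between both. Column names gave each library's group but not its title number. Alternatives were DESeq2 1.42.0 and edgeR 4.0.16 on these reads, library totals, TMM and RLE factors of the libraries fitted, a pseudocount of 1, no filter, other sets of libraries, the 2 names summed, and leaving out each library. Libraries of the same column suffix deviated together in all 3 pairs of differentiated bait eluate with input (r = 0.133, 0.274 and 0.402) and with MS2 control (r = 0.104, 0.113 and 0.173), and not in all 3 pairs of the other groups compared. A block by column suffix, the removal of either kind of MS2 control and the 2 comparisons of changes with input were added after the data were seen. The permutation test of the 3' arm share and the folds against a floor of 3 reads were not in the plan either. Fits were also run on simulated data, whose results are not reported here and in which the choice of scaling was not varied. Python 3.11.15, pandas 2.3.3, scipy 1.17.1 and matplotlib 3.10.9 were used otherwise. With 15562 to 39695 reads, the MS2 controls limit the precision of every comparison that uses them.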

Additional observations from a re-analysis of the deposited data

How the results depend on the processing

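Of 474 values recomputed under another setting, 424 kept direction and side of the threshold, and the rise in input, bait eluates and MS2 controls kept both in all. The count takes the names of miR-486 separately, although they stand for the same molecule. It also holds the TMM fits that equal the main fit in the comparisons of eluates with input. The 474 values are therefore not independent checks. Library totals ended the bait over control calls: undifferentiated 0.37 (miR-486-5p) and 0.20 (miR-3107-5p), differentiated 0.92 and 0.82. They reversed bait over input in differentiated cells (-0.41 and -0.41) and, for miR-3107-5p, the MS2 change minus the input change (-0.00069). Only the groups compared fitted, bait over input in differentiated cells passed (0.78 and 0.78).

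The interaction changed sign with edgeR (-0.0910 for miR-486-5p), DESeq2 (-0.41 and -0.31), RLE factors (-0.27 and -0.20) and without MS2 controls of many human-named reads (-0.39 and -0.0518), which leaves differentiated control C alone, its spread assumed to be that of the other groups. Bait over input in undifferentiated cells was 1.21 and 1.24 with DESeq2, 1.12 and 1.17 with RLE factors and 0.0046 with edgeR (miR-3107-5p). MS2 control over input did not pass with DESeq2 (undifferentiated -0.59 and -0.36, differentiated -0.74 and -0.64) or RLE factors (-0.49 and -0.27, -0.74 and -0.64), nor, in differentiated cells, with control C alone (-1.21 and -1.20). Bait change minus input change was -0.50 and -0.53 with DESeq2 and -0.42 and -0.47 with RLE factors; for the MS2 change it was -0.14 and -0.28, and -0.25 and -0.37. The cause of these shifts was not tested.

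Leaving out 1 library, the values for miR-486-5p and miR-3107-5p ranged from -0.25 to 0.59 and -0.12 to 0.64 (interaction), from -0.64 to 0.21 and -0.56 to 0.19 (bait over input, undifferentiated), and from 0.57 to 1.42 and 0.59 to 1.34 (bait change minus input change).

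Names called higher and lower in input were 50 and 145, and 87 and 91 with DESeq2; in bait over control of undifferentiated cells 73 and 29, and 55 and 63 with library totals; in the interaction 14 and 8, and 0 and 0 with edgeR; in MS2 control over input of undifferentiated cells 26 and 191, and 73 and 91 with DESeq2.

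The replicate block by column suffix changed no call on either name; input 2.83 and 2.84. Column suffixes are not the numbers of the titles, so a block by those could not be made. Over 45 pairs of libraries with the same suffix, 14 had deviations with r over 0.1 (median 0.05). All 3 pairs did for differentiated bait eluate with input and with MS2 control; there the block gave 0.78 and 0.78 (bait over input) and 2.37 and 2.27 (bait over control). The 3' arm and the split in MS2 controls rest on few reads.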
